A study of Mus musculus with 9 samples.

Results

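Transcripts of 9 mouse histone variant genes other than those of H3.3 were followed in 8-cell embryos: *H2afz*, *H2afv*, *H2afx*, *H2afy*, *H2afy2* and *H2afj* of the H2A family, and *H1foo*, *H1f0* and *H1fx* of the linker histones. The members were taken by gene symbol and not by a cut on their values, though earlier results of these data were known when they were chosen. Each symbol was found once among the 55335 entries of each library. The filter on low values asked that a gene's FPKM, averaged across all 9 libraries, reach 1; 8 of the 9 members and 13011 genes in all passed it. FPKM divides a gene's fragments by its length and by the library's total, so levels can be set side by side between genes. *H2afy2* did not pass. *H1fx* passed only through the H3.3-KD libraries, so it had to differ between groups to be tested at all.

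The study asked how loss of the mitochondrial fusion protein MFN1 bears on the histone variant H3.3 in early development, and compared embryos depleted of either. Zygotes of ICR mice, made by in vitro fertilization, were injected with nontargeting siRNA (control), with siRNA against *Mfn1* (MFN1-KD) or with siRNAs against *H3f3a* and *H3f3b*, which encode the same H3.3 protein (H3.3-KD). They were cultured to the 8-cell stage, and every group, control included, had thus been injected and cultured. Each of the 3 groups had 3 libraries made from pooled embryos; the labels speak of 5 to 10 embryos a group and the methods of 10, which leaves the number in each library uncertain. The reduction was of RNA in whole embryos, and no allele was deleted. Libraries followed the Smart-Seq2 method, so reverse transcription started from an oligo-dT primer on polyadenylated RNA and the cDNA was amplified by PCR.

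Nucleosomes are built in S phase from canonical histones, whose clustered genes give mRNAs that end in a stem-loop in place of a poly(A) tail. Variant histones are encoded by solitary genes with polyadenylated mRNAs and can be placed in chromatin outside S phase. H2A.Z, encoded by *H2afz* and *H2afv*, is exchanged into nucleosomes beside transcription start sites by the SRCAP and EP400 complexes. H2A.X, encoded by *H2afx*, is phosphorylated around DNA double-strand breaks and recruits repair factors. MacroH2A, encoded by *H2afy* and *H2afy2*, carries a large globular domain and is known from silent chromatin such as the inactive X chromosome. Linker histones bind the DNA that enters and leaves the nucleosome. H1FOO is the form of the oocyte and early embryo, and H1.0 (*H1f0*) is the form that accumulates in differentiated and non-dividing cells.

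The targeted genes were checked first. *H3f3a* was at 1594, 2092 and 2110 FPKM in control and at 170, 117 and 161 FPKM in H3.3-KD. *H3f3b* stood at 2903, 2895 and 3166 FPKM in control against 311, 171 and 257 FPKM in H3.3-KD. *Mfn1* was at 51.6, 22.6 and 23.8 FPKM in control and at 9.54, 4.40 and 1.15 FPKM in MFN1-KD. All 3 genes were lower in each library in which they were targeted than in any control library, and without MFN1-KD replicate 3 *Mfn1* had a log2 fold change of -2.05 (adjusted p = 0.0728). In MFN1-KD the means of *H3f3a* and *H3f3b* were 69.1% and 93.3% of control (adjusted p = 0.153 and 0.821 in limma). Their MFN1-KD libraries all lay below control, as for 16.8% of all genes. In H3.3-KD *Mfn1* was at 100, 89.5 and 40.0 FPKM (adjusted p = 0.143 in limma). All 11 genes of a list of 8-cell embryo markers were above 0 FPKM in at least 1 library. *Cdx2* was at most 0.09 FPKM in control and MFN1-KD, and at 2.21, 6.24 and 0.57 FPKM in H3.3-KD. Together the markers gave 147 to 221 FPKM in control, 199 to 213 in MFN1-KD and 340 to 780 in H3.3-KD. *Pou5f1* averaged 7.24, 2.24 and 262 FPKM in the same order. Without *Pou5f1*, the 10 other markers summed to 142 to 213 FPKM in control, 199 to 209 in MFN1-KD and 277 to 388 in H3.3-KD. Against control, the adjusted p called 5 of these 11 markers up and 0 down after H3.3 knockdown, beside 21.8% and 9.12% of all genes. After *Mfn1* knockdown it called 0 either way, beside 1.15% and 2.20% of all genes. Of 11 cumulus or granulosa cell markers, 10 were under 1 FPKM in every library and 3 of them were at 0 throughout. The summed FPKM of 7 transcripts typical of the 2-cell stage ran from 24.3 to 30.9 in control, from 23.0 to 89.8 in MFN1-KD and from 222 to 524 in H3.3-KD. For 11 transcripts stored in the oocyte, the sum ran from 10697 to 13965 in control, from 16727 to 20391 in MFN1-KD and from 6303 to 7766 in H3.3-KD. The oocyte sum is mostly *Dppa3* in every library, and the 2-cell sum is mostly *Tdpoz4* in H3.3-KD. In MFN1-KD *Tdpoz4* was at 13.6, 2.73 and 5.08 FPKM, below the sum of the other 2-cell transcripts in each library. Without *Tdpoz4*, the 6 other 2-cell transcripts summed to 6.24 to 18.8 FPKM in control, 17.9 to 76.2 in MFN1-KD and 10.7 to 108 in H3.3-KD. The 10 other oocyte transcripts summed to 51.2 to 63.2, 29.9 to 55.7 and 43.6 to 66.9 FPKM in the same order. In H3.3-KD *Tdpoz4* alone of the 2-cell list and *Dppa3* alone of the oocyte list were called, and in MFN1-KD none of either list was. The part of these transcripts in the results below was not tested. Depth was estimated from the spacing of low FPKM values as 19500000 to 27100000 fragments per library. MFN1-KD replicate 3 stood apart, with 15577 genes above 0 FPKM against 19250 to 24820 in the others, and values without it are given where it moves a result most.

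In control embryos the members spanned a wide range of levels. *H2afz* led with 2395 ± 142 FPKM (mean ± SD, n = 3), followed by *H2afv* with 371 ± 7.15, *H2afj* with 126 ± 3.44, *H2afx* with 26.2 ± 8.65 and *H1f0* with 9.92 ± 3.35 FPKM. No neighbours in this upper part of the order overlapped between their libraries. *H2afy* (3.35 ± 0.802 FPKM) and *H1foo* (2.45 ± 0.722 FPKM) overlapped each other. *H2afy2* and *H1fx* were listed at 0 in all 3 control libraries. MFN1-KD kept the order of the first 5 genes, while in H3.3-KD *H2afx* stood second, above *H2afv* and *H2afj*, without overlap with either neighbour.

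**Figure D1:**
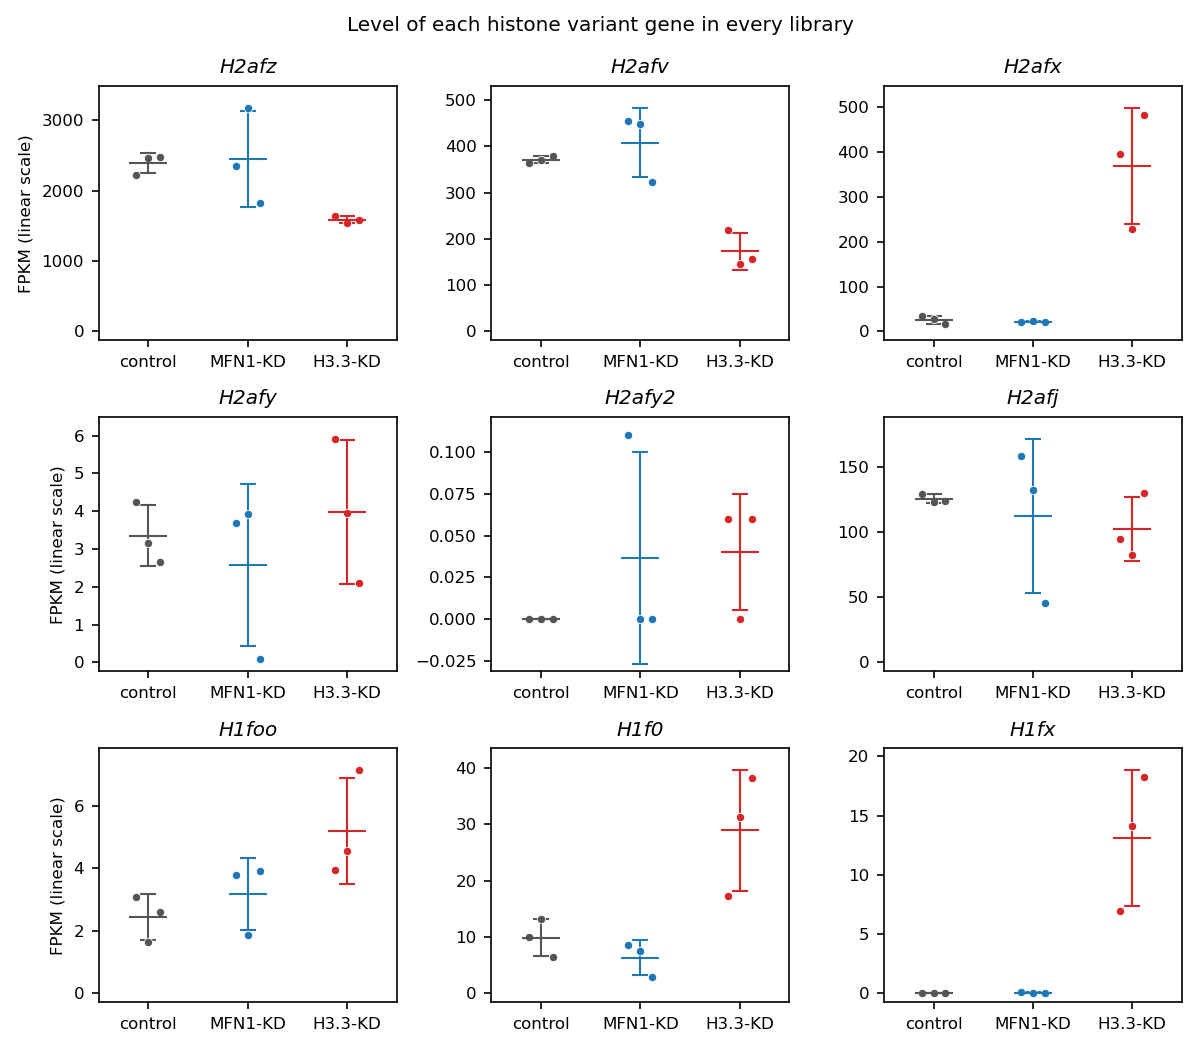
FPKM of each of the 9 genes (linear axis, a separate scale in each panel) in the 3 libraries of control, MFN1-KD and H3.3-KD; points are libraries, the wide bar is the mean and the whiskers are 1 SD. *H2afx*, *H1f0* and *H1fx* sit higher in all 3 H3.3-KD libraries than in any control library, *H2afz* and *H2afv* sit lower, and 1 MFN1-KD library is far below the other two for *H2afy* and *H2afj*.

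In H3.3-KD, 5 of the 8 members tested passed an adjusted p under 0.05: *H2afx*, *H1fx* and *H1f0* were higher and *H2afz* and *H2afv* were lower than in control. Among all 13011 genes, 21.8% were higher and 9.12% were lower by the same rule, so changes were common in this comparison and 5 calls among 8 genes are read as a description, all the more as *H1fx* had to differ to be among the 8. Median-ratio scaling gave 16.3% higher and 13.4% lower, and upper-quartile scaling 14.5% and 15.1%. Under either of them the members called higher were *H2afx* and *H1fx* and those called lower *H2afz* and *H2afv*. The study's own threshold of more than 2-fold with an unadjusted p under 0.05 was put on the limma values, not on the study's tests. By it the higher members were the same 3 and the lower one was *H2afv*, against 23.9% and 9.39% of all genes. The libraries of the groups did not overlap for 4 higher members (*H2afx*, *H1fx*, *H1f0* and *H1foo*) and 2 lower ones, against 34.5% and 18.9% of all genes. The median log2 fold change was 0.49 over the 8 members and 0.26 over all genes.

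In MFN1-KD no member was called. By the adjusted p, 0 of 8 were higher and 0 were lower, against 1.15% and 2.20% of all genes, and none had an unadjusted p under 0.05 in limma. By the study's threshold the members again gave 0 in each direction, against 5.02% and 9.05% of all genes. No member was free of overlap with control, against 11.4% of genes that were higher and 16.8% that were lower without overlap. The members' median log2 fold change was -0.09 beside -0.08 over all genes.

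**Figure D2:**
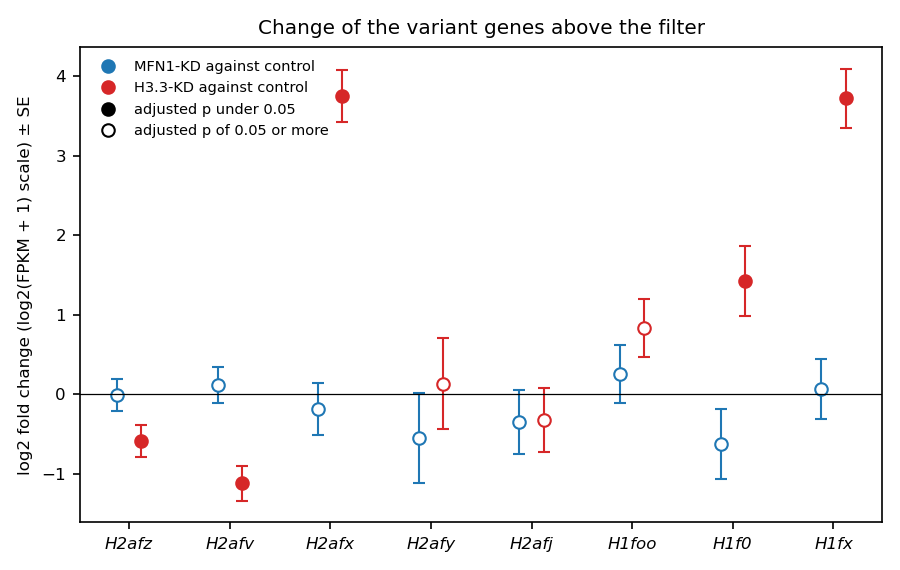
Log2 fold change against control (difference of mean log2(FPKM + 1), with its standard error as whiskers) of the 8 genes above the filter in MFN1-KD (blue) and H3.3-KD (red); filled points have an adjusted p under 0.05. *H2afx* and *H1fx* stand at 3.75 and 3.72 in H3.3-KD, *H2afz* and *H2afv* at -0.59 and -1.12, and all MFN1-KD points are open.

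Both genes of H2A.Z were lower in H3.3-KD and not in MFN1-KD. *H2afz* (chromosome 3, 137864487 to 137866922 of GRCm38, plus strand, 5 exons in its longest transcript) had 2231, 2467 and 2486 FPKM in control. It was at 2347, 3173 and 1822 FPKM in MFN1-KD and at 1641, 1545 and 1588 FPKM in H3.3-KD. All 3 H3.3-KD libraries lay below every other library, whereas MFN1-KD spread to both sides of control. The H3.3-KD mean was 66.5% of control, and the log2 fold change was -0.59 (SE 0.20, adjusted p = 0.0461). This call was a narrow one: the adjusted p was 0.102 without the filter, and 7 of the 9 omissions of a single library raised it above 0.05. In RNA of pooled embryos, a lower level in every cell and a larger fall in only some cells cannot be told apart.

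*H2afv* (chromosome 11, 6427229 to 6444443, minus strand, 5 exons) was the member that fell furthest. Its level was 364, 371 and 379 FPKM in control, 454, 448 and 322 FPKM in MFN1-KD and 220, 145 and 156 FPKM in H3.3-KD. Here again the H3.3-KD libraries lay below every library of the other groups. The H3.3-KD mean was 46.7% of control, and the log2 fold change was -1.12 (SE 0.22, adjusted p = 0.00403), with an adjusted p of at most 0.0207 under all 18 alternatives. Scaling by median ratios, which moved the median change of all genes in H3.3-KD from 0.26 to 0.00, gave -1.45 for *H2afv* and -0.93 for *H2afz*. In MFN1-KD the log2 fold change was 0.12 for *H2afv* (SE 0.22, adjusted p = 0.791; 0.28 without MFN1-KD replicate 3) and -0.00 for *H2afz* (SE 0.20, adjusted p = 0.999; 0.19 without it).

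A ratio of both genes within a library does not depend on how the library was scaled. The ratio of *H2afz* to *H2afv* was 6.12, 6.65 and 6.57 in control, 5.17, 7.09 and 5.65 in MFN1-KD and 7.47, 10.7 and 10.2 in H3.3-KD. All H3.3-KD ratios were above all others, with *H2afv* lower relative to *H2afz*. A two-sided exact permutation test of H3.3-KD against control gave p = 0.10, the smallest value that 3 libraries against 3 can give. Together the H2A.Z genes summed to 2766 ± 148 FPKM in control, down to 1765 ± 87.5 in H3.3-KD (SD, n = 3).

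The promoters of the H2A.Z genes are shown because the pair fell together. RefSeq promoter windows (GRCm38.p6, 250 bases before to 50 after the start) were matched for 8 of the 9 members, all but *H2afx*. They were searched on both strands for the CCAAT box, for the GC box GGGCGG and for the TATA box in the form TATAAA. A reversed CCAAT box can run into a GC box and share its last letters, which happened in none of the windows printed here. Of the 27025 windows of all genes, 37.9% held a CCAAT box, 35.9% a GC box and 14.2% a TATA box. The window of *H2afz*, chr3:137864237-137864536 on the plus strand, held 3 CCAAT boxes and 2 GC boxes, and that of *H2afv*, chr11:6444394-6444693 on the minus strand, held 4 CCAAT boxes and 1 GC box. Capitals mark these motifs, with the reverse complement where they lie on the other strand.
H2afz: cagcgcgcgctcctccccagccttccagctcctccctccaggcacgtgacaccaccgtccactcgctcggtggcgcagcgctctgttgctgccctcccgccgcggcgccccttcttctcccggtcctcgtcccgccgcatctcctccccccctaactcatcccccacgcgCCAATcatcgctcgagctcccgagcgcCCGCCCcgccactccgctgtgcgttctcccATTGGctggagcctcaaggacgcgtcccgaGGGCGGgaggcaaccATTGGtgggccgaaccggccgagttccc
H2afv: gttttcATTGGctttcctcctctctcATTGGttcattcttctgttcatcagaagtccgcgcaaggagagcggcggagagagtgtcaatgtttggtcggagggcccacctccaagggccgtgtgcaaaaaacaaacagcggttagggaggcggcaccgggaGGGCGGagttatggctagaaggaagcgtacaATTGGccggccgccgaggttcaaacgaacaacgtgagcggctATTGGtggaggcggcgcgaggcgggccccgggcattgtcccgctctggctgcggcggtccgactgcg
Neither window held a TATA box, and no member's window did. *H2afj*, which was not called, also held 3 CCAAT boxes and 2 GC boxes, and of the rest *H1foo* held 2 CCAAT boxes, *H2afy2* 1 and *H2afy* none. The windows follow RefSeq starts, and those of *H2afy* and *H2afy2* do not reach the GENCODE start of the gene. A match describes letters in a window and not a bound factor.

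*H2afx* rose in H3.3-KD and overlapped with control in MFN1-KD. The gene lies on chromosome 9 from 44334694 to 44336077, plus strand, as a single exon. It was at 34.2, 27.5 and 17.0 FPKM in control, at 21.2, 24.0 and 21.2 FPKM in MFN1-KD and at 396, 229 and 482 FPKM in H3.3-KD. The lowest H3.3-KD library was several times above the highest of the other 6. The mean was 14.1 times that of control, and the log2 fold change was 3.75 (SE 0.33, adjusted p = 7.8e-05 in limma), the 89th highest of 13011 genes. Estimated fragments behind these values were 523 to 1063 in control and 7006 to 14094 in H3.3-KD, so counting error is small beside the spread between libraries. The adjusted p stayed under 0.05 in all 18 alternatives, and the log2 fold change was smallest, 2.61, after removal of the library-wise trend with GC content and with transcript length. MFN1-KD differed from control by -0.18 (SE 0.33, adjusted p = 0.781).

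The transcript of *H2afx* is a mixed form among the members, since it carries a replication-type stem-loop and also extends beyond it. In the GENCODE M21 transcript the stem-loop begins 46 bases after the stop codon, in the 3′ UTR, and 822 bases follow it, ending with a poly(A) signal that starts at base 1350 of 1384. The stem-loop is shown with 5 bases on either side, from chr9:44335235-44335260, plus strand, and capitals mark the stem and loop.
H2afx: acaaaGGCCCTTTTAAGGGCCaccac
A search for this structure (a stem of 6 paired bases that starts with GG around a 4-base loop that starts with TTT) found it in 28 of 12768 tested genes with a transcript (0.22%) and in 18 of 34 clustered histone genes (52.9%). No other member held it. With oligo-dT priming, transcripts that end at the stem-loop are not primed at a poly(A) tail, and the share of such transcripts was not measured.

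The remaining H2A variants showed no change that passed the test. *H2afj* (chromosome 6, 136808244 to 136810074, plus strand, a single exon), which encodes the replication-independent variant H2A.J, was at 130, 124 and 124 FPKM in control. It was at 158, 133 and 45.4 FPKM in MFN1-KD and at 95.0, 82.4 and 130.1 FPKM in H3.3-KD. Against control it stood at -0.32 on the log2 scale in H3.3-KD (SE 0.41, adjusted p = 0.586) and -0.35 in MFN1-KD (SE 0.41, adjusted p = 0.653). The latter rested on MFN1-KD replicate 3 and was 0.20 without it.

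MacroH2A transcripts were scarce. *H2afy* (chromosome 13, 56073619 to 56136361, minus strand, 9 exons) was at 4.23, 3.16 and 2.66 FPKM in control, at 3.70, 3.93 and 0.10 FPKM in MFN1-KD and at 5.90, 3.94 and 2.11 FPKM in H3.3-KD. The groups overlapped, with a log2 fold change of 0.14 in H3.3-KD (SE 0.57, adjusted p = 0.879) that turned to -0.12 under median-ratio scaling and to -0.61 with the GC trend removed. In MFN1-KD it was -0.55 (SE 0.57, adjusted p = 0.603) and, without MFN1-KD replicate 3, 0.16. *H2afy2* (chromosome 10, 61738665 to 61784147, minus strand, 9 exons) was listed at 0 in 6 of 9 libraries and at 0.11 FPKM in MFN1-KD replicate 1 and 0.06 FPKM in H3.3-KD replicates 1 and 3. These values correspond to an estimated 3 to 5 fragments, and 3 fragments were worth 0.056 to 0.077 FPKM. At this depth no difference of *H2afy2* between groups was detectable.

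Among the linker variants, *H1f0* and *H1fx* were higher in H3.3-KD. *H1fx* (chromosome 6, 87980421 to 87981637, minus strand, a single exon), which encodes the replication-independent form H1.10, was listed at 0 in all control libraries. It was at 0.11, 0 and 0.04 FPKM in MFN1-KD, or at most 3 estimated fragments. In H3.3-KD it reached 6.92, 14.2 and 18.2 FPKM, or 193 to 458 estimated fragments. No fold is given against a group listed at 0. On the log2(FPKM + 1) scale the difference was 3.72 (SE 0.37, adjusted p = 1.6e-04 in limma), and the size of this difference follows the pseudocount (6.94 with 0.1). With the GC trend removed it was 1.97 (adjusted p = 0.00485). *H1fx* passed the filter only through H3.3-KD, so these p-values are not read as support for a difference.

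*H1f0* (chromosome 15, 79028450 to 79030504, plus strand, a single exon) was at 10.1, 13.2 and 6.49 FPKM in control, at 8.66, 7.50 and 2.93 FPKM in MFN1-KD and at 17.2, 31.3 and 38.1 FPKM in H3.3-KD. The H3.3-KD libraries were above all others, with the first of them close to the highest control. The mean was 2.91 times that of control, and the log2 fold change was 1.43 (SE 0.44, adjusted p = 0.0306). Under median-ratio scaling (0.0609), upper-quartile scaling (0.0891), no filter (0.0854) and removal of the GC trend (0.156) the adjusted p of *H1f0* was above 0.05, as it was in 4 of the 9 omissions of a single library. In MFN1-KD the log2 fold change was -0.62 (SE 0.44, adjusted p = 0.426), and -0.22 without MFN1-KD replicate 3.

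*H1foo* (chromosome 6, 115944938 to 115950236, plus strand, 5 exons), the oocyte linker histone, was low in every group. It was at 3.08, 1.66 and 2.60 FPKM in control, at 3.78, 1.86 and 3.91 FPKM in MFN1-KD and at 3.94, 4.55 and 7.14 FPKM in H3.3-KD. The 3 H3.3-KD libraries lay above the 6 others, by a small margin at the lower end. The log2 fold change of 0.84 (SE 0.36) had an unadjusted p of 0.0431 and an adjusted p of 0.106 in limma, so it did not pass, and it passed with library weights (0.012). In MFN1-KD it was 0.26 (SE 0.36, adjusted p = 0.711).

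The promoter windows of *H1f0* (chr15:79027962-79028261, plus strand) and *H1fx* (chr6:87981433-87981732, minus strand) are shown as the linker pair that rose. They follow RefSeq starts, which differ from the GENCODE starts of these genes. The window of *H1f0* ends before its GENCODE start (79028450). The GENCODE start of *H1fx* (87981637) lies within its window, upstream of the RefSeq start. Neither window held a CCAAT box, and each held 1 GC box, in capitals here as read on either strand.
H1f0: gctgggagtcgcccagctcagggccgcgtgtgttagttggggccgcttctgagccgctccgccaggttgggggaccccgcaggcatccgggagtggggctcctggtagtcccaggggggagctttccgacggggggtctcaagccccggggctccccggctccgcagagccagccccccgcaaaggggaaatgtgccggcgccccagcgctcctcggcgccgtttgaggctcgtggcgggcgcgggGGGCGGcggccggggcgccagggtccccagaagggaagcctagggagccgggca
H1fx: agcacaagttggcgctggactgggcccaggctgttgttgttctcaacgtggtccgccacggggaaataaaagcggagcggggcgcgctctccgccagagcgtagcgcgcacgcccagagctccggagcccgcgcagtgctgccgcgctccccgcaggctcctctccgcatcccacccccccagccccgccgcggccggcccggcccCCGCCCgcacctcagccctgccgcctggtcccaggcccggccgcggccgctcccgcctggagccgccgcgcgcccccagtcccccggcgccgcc
Both windows were rich in CpG, with 29 and 40 CpG against a median of 7 over all promoters. The H2A.Z windows held 34 (*H2afz*) and 27 (*H2afv*).

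The make-up of the variant pool differed accordingly. *H2afx* gave 1.24%, 0.92% and 0.57% of the summed H2A variant FPKM in control and 0.71%, 0.63% and 0.96% in MFN1-KD. It gave 16.8%, 11.4% and 20.4% in H3.3-KD. *H2afz* went from 81.9 ± 1.05% in control to 71.3 ± 5.07% in H3.3-KD, and *H2afv* from 12.7 ± 0.415% to 7.72 ± 1.42% (SD, n = 3). Between H3.3-KD and control the libraries did not overlap for any of these 3 shares, and each two-sided exact permutation test gave p = 0.10, the smallest possible. In MFN1-KD all 3 shares overlapped with control (p = 0.7 for *H2afx*, 0.8 for *H2afz* and 0.4 for *H2afv* in the same exact test). The sum itself was 2921 ± 137 FPKM in control, 2992 ± 786 FPKM in MFN1-KD and 2240 ± 204 FPKM in H3.3-KD. In the linker group the sum was 12.4 ± 2.96 FPKM in control but 47.2 ± 17.9 FPKM in H3.3-KD, of which *H1fx* gave 24.6% to 28.7% in H3.3-KD and none in control. H1FOO transcripts gave 56.8% of the linker sum in MFN1-KD replicate 3 and 11.2% to 30.1% in the other control and MFN1-KD libraries.

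**Figure D3:**
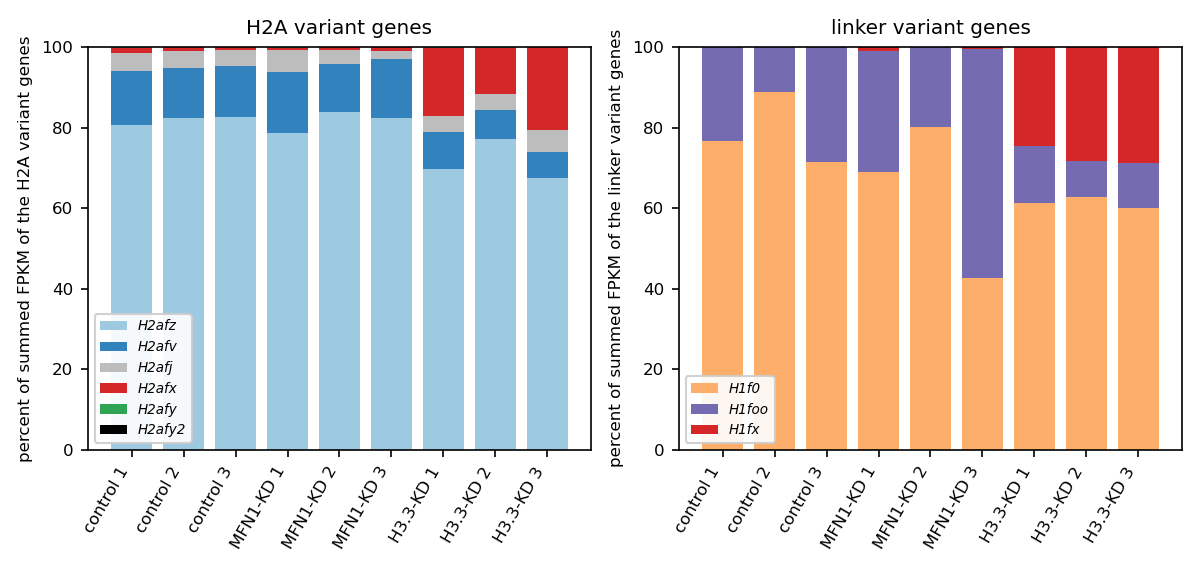
Share of each gene in the summed FPKM of the 6 H2A variant genes (left) and of the 3 linker variant genes (right) in each of the 9 libraries, as stacked bars from 0 to 100%; *H2afy* and *H2afy2* are under 0.3% and barely visible. *H2afx* takes 11.4% to 20.4% of the H2A variants in H3.3-KD and at most 1.24% elsewhere, and *H1fx* appears at over 24% of the linker variants only in H3.3-KD.

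Exon number and base composition are given here beside the changes. *H2afx*, *H1fx*, *H1f0* and *H2afj* are single-exon genes in their longest transcript, and of these *H2afj* was not called. *H2afx* and *H1fx* had 62.3% and 71.3% GC in their longest transcript, above 98.5% and 99.95% of the genes tested, while *H2afz* had 48.4% and *H2afv* 47.2%. *H1f0*, which was called higher, had 52.1% and *H2afj* 54.6%. Across the protein-coding genes tested with at least 60% GC, H3.3-KD gave a median change of 1.55 (log2), and 61.8% of those 400 genes were higher by the adjusted p. It was 1.73 for the 44 of them with a single exon and 1.52 for the 356 with more exons. *H2afx* stood at 3.75 beside these medians, and the 3.72 of *H1fx* is not set against them, since that gene had to be high in H3.3-KD to pass the filter. Both genes are among the 400 and the 44. How many others of these passed the filter only through H3.3-KD was not counted. In MFN1-KD the 400 genes had a median of -0.16 and 0 were higher by the adjusted p. Single-exon protein-coding genes as a whole had a median of 0.63 (n = 303) against 0.37 for those with more exons (n = 9733) in H3.3-KD. With the trend over GC content and length removed, *H2afx* stayed at 2.61, *H2afv* at -1.28 and *H2afz* at -0.53, each with an adjusted p under 0.05. *H1fx* was at 1.97, and its p is not read here, since the gene had to be high in H3.3-KD to pass the filter. *H1f0* stood at 0.81 (adjusted p = 0.156) and *H2afj* at -1.03 (adjusted p = 0.0512) on that scale. The part that base composition has in the members' changes was not tested beyond this.

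**Figure D4:**
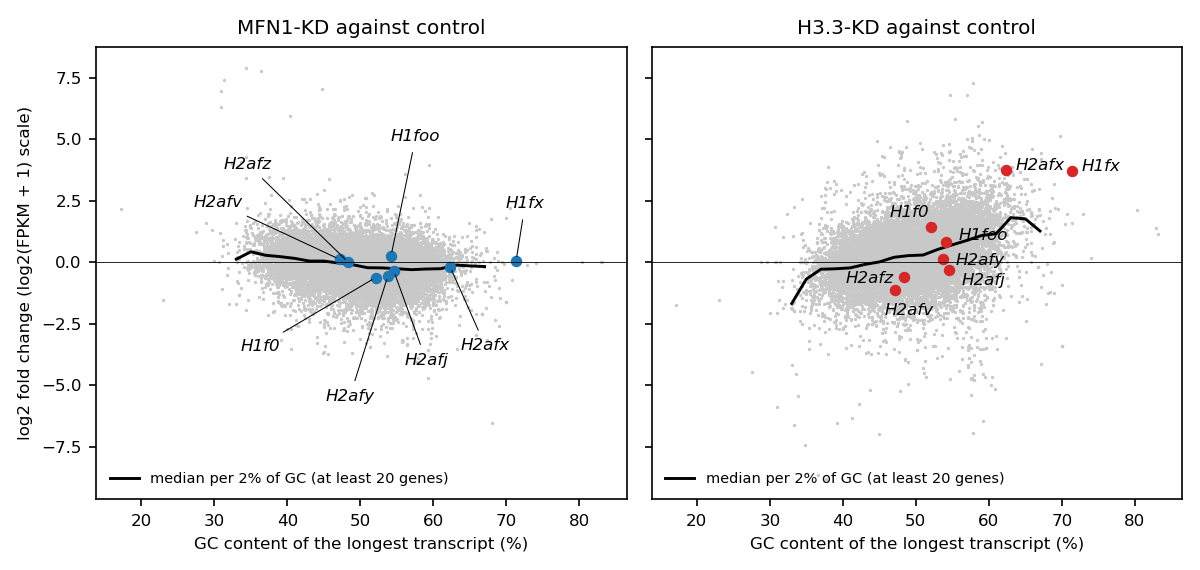
Log2 fold change (log2(FPKM + 1) scale) against GC content of the longest transcript for genes tested (grey) in MFN1-KD (left) and H3.3-KD (right), with the median in steps of 2% as a line and the 8 members as coloured points. The line climbs with GC content in H3.3-KD, where *H2afx* lies above it and *H2afv* and *H2afz* lie below it. The place of *H1fx* is not read against the line, since that gene had to be high in H3.3-KD to pass the filter.

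The machinery that places and removes H2A.Z was taken as a list of 20 genes, all above the filter. In H3.3-KD 8 were higher and 1 was lower by the adjusted p, beside 21.8% and 9.12% of all genes, and the median log2 fold change was 0.45 beside 0.26 over all genes. The smallest p was that of *Kat5*, the acetyltransferase of the TIP60-EP400 complex, at 6.28, 3.21 and 3.57 FPKM in control against 48.5, 52.6 and 44.8 FPKM in H3.3-KD (log2 fold change 3.25, adjusted p = 1.4e-04). *Anp32e*, the chaperone that removes H2A.Z, rose by 2.36 on the log2 scale (adjusted p = 4.9e-04). *Vps72*, the subunit that binds H2A.Z in both exchange complexes, went from 16.6 ± 2.12 to 69.2 ± 11.7 FPKM (SD, n = 3). *Actr6*, an actin-related subunit of the SRCAP complex, was the 1 gene called lower, at 79.3 ± 13.8 FPKM in control and 36.1 ± 10.1 in H3.3-KD (log2 fold change -1.13, adjusted p = 0.0145). *Znhit1* (-0.87, adjusted p = 0.0601) and *Trrap* (-0.83, adjusted p = 0.0689) also had negative values, and 11 of the 20 were not called. In MFN1-KD 0 were higher and 1 was lower, namely *Vps72* at 5.98 ± 1.31 FPKM (log2 fold change -1.34, adjusted p = 0.0359), which was not called without MFN1-KD replicate 3 (-1.25, adjusted p = 0.0535). The furthest rise there was *Anp32e*, at 0.66 (adjusted p = 0.224).

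Of 19 genes of H2A.X signalling, 17 passed the filter. In H3.3-KD 4 were higher and 2 were lower, which is close to the 21.8% and 9.12% of all genes, and the median was 0.35. The called genes are named as single genes, and nothing is read from them about the list. The 4 higher genes were *Rnf168*, a ubiquitin ligase of H2A (log2 fold change 1.95), the phosphatase genes *Ppm1d* (1.97) and *Ppp4c* (1.70), and *Eya3*, a phosphatase of the H2A.X tyrosine mark (1.86). The 2 lower genes encode the kinases that phosphorylate H2A.X at breaks. *Atm* fell from 31.7, 35.4 and 41.6 FPKM in control to 8.29, 10.4 and 11.2 FPKM (log2 fold change -1.77, adjusted p = 7.1e-04), and *Atr* had a log2 fold change of -0.91 (adjusted p = 0.0444). The third kinase gene, *Prkdc*, stood at -0.31 (adjusted p = 0.576). In MFN1-KD 0 of the 17 were called in each direction. The smallest p there belonged to *Ppp4c* (log2 fold change -1.36, adjusted p = 0.057) and the furthest move the opposite way to *Ppm1d* (1.53, adjusted p = 0.0812).

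Among 4 measured macroH2A partners, *Ssrp1*, a subunit of the histone chaperone FACT, was called higher in H3.3-KD (log2 fold change 1.23, adjusted p = 0.008), and *Parp1*, whose protein binds macroH2A, moved furthest the opposite way (-0.62, adjusted p = 0.187). None was called in MFN1-KD, where *Parp1* stood at 0.84 (adjusted p = 0.168; 0.42 without MFN1-KD replicate 3) and *Ssrp1* at -0.60 (adjusted p = 0.23). The 15 H1 chaperones, importers and competitors had a median of -0.09 in H3.3-KD, below that of all genes, with 5 higher and 3 lower beside 21.8% and 9.12% of all genes. *Hmga1*, which competes with H1 for linker DNA, went from 1.79 ± 1.07 to 22.5 ± 9.03 FPKM (SD, n = 3; log2 fold change 3.08, adjusted p = 0.00167). *Npm2*, the oocyte nucleoplasmin, fell by 1.11 on the log2 scale (adjusted p = 0.0344). In MFN1-KD 2 were higher, the H1 importer gene *Ipo7* (1.10, adjusted p = 0.0372) and the H1 chaperone gene *Nasp* (0.94, adjusted p = 0.0444), and 1 was lower, *Hmgb2* (-1.19, adjusted p = 0.043), beside 1.15% and 2.20% of all genes. Without MFN1-KD replicate 3 the adjusted p of *Ipo7* was 0.0588, that of *Nasp* 0.0784 and that of *Hmgb2* 0.0454. In H3.3-KD *Ipo7* was called higher as well (1.185, adjusted p = 0.0031). There *Nasp* (-0.25, adjusted p = 0.40) and *Hmgb2* (-0.68, adjusted p = 0.0703) were not called.

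**Figure D5:**
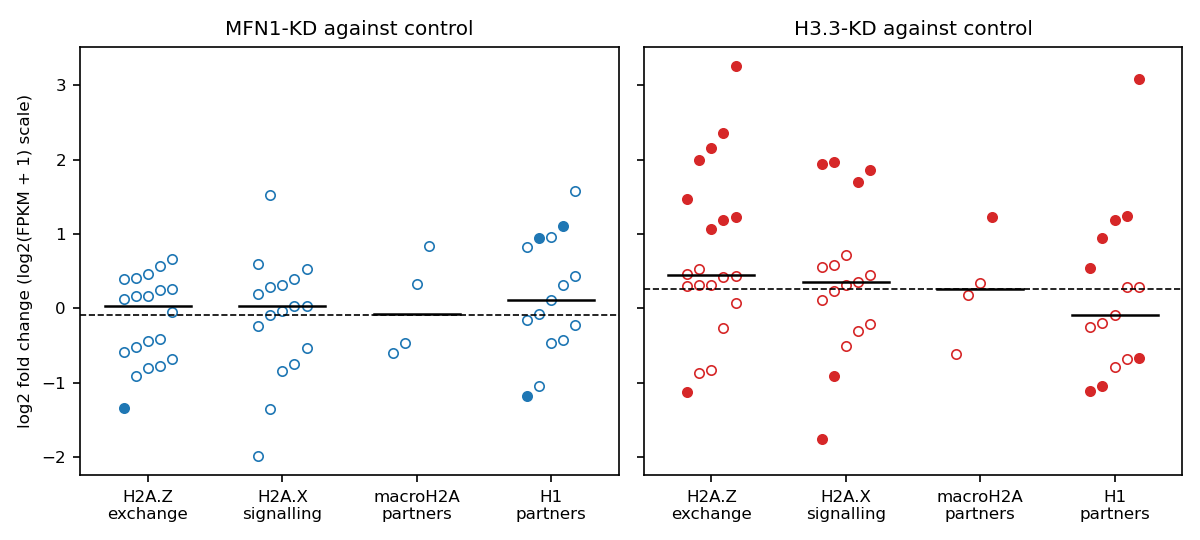
Log2 fold change (log2(FPKM + 1) scale) of each gene above the filter in the 4 partner lists in MFN1-KD (left) and H3.3-KD (right); filled points have an adjusted p under 0.05, the short line is the list's median and the dashed line the median of all genes tested. In H3.3-KD 8 of 20 H2A.Z exchange genes are filled above 0, and in MFN1-KD only 4 points in all are filled.

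The solitary linker variants can be set beside the linker histones of the histone cluster, of which 4 of 5 passed the filter. Their summed FPKM was 59.4, 59.7 and 49.7 in control, 33.4, 33.1 and 0.83 in MFN1-KD and 46.8, 40.4 and 19.6 in H3.3-KD. Both knockdowns lay below control without overlap (two-sided exact permutation p = 0.10 for each), so in H3.3-KD the cluster sum was lower while the sum of *H1f0*, *H1foo* and *H1fx* was higher. *Hist1h1b* carried most of the cluster sum, at 43.6 ± 5.36 FPKM in control, 19.1 ± 16.3 FPKM in MFN1-KD and 25.5 ± 12.3 FPKM in H3.3-KD (adjusted p = 0.275 and 0.566). Its log2 fold change in MFN1-KD was -2.10, and -0.59 without MFN1-KD replicate 3. *Hist1h1a* was the only one called, in MFN1-KD (log2 fold change -2.11, adjusted p = 0.0382; -1.62 and 0.0419 without MFN1-KD replicate 3), and had -1.11 in H3.3-KD (adjusted p = 0.0799). *Hist1h1e* had -1.02 in MFN1-KD (adjusted p = 0.159) and 1.02 in H3.3-KD (adjusted p = 0.071), and *Hist1h1c* stood at -0.55 and -0.60 (adjusted p = 0.386 and 0.227). *Hist1h1d* did not pass the filter. Oligo-dT priming reads cluster transcripts only so far as they are polyadenylated.

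Of 9 further variant genes, including those of the centromere and the germ line, 2 passed the filter. *Cenpa*, the centromeric H3 variant, was at 203, 207 and 228 FPKM in control, 74.7, 149 and 86.8 FPKM in MFN1-KD and 146, 197 and 280 FPKM in H3.3-KD. The 3 MFN1-KD libraries all lay under the 3 controls, as for 16.8% of all genes. The log2 fold change of *Cenpa* there was -1.10 (SE 0.30, unadjusted p = 0.00456, adjusted p = 0.0742 in limma), and in H3.3-KD it was -0.08 (adjusted p = 0.86). *Hist1h2aa*, a testis H2A variant, had 4.78 ± 2.36 FPKM in control, 7.36 ± 7.34 FPKM in MFN1-KD and 5.85 ± 2.56 FPKM in H3.3-KD, with adjusted p-values of 0.966 and 0.859, and its log2 fold change in MFN1-KD went from -0.11 to 1.07 without MFN1-KD replicate 3.

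The knockdowns were also compared with each other. The 5 members called in H3.3-KD against control were called in the same direction in H3.3-KD against MFN1-KD, where 27.6% of all genes were higher and 11.0% were lower by the adjusted p (20.9% and 16.3% under median-ratio scaling, 19.1% and 18.2% under upper-quartile scaling). *H2afx* was 3.93 (SE 0.33, adjusted p = 3.5e-05) and *H1fx* 3.65 (SE 0.37, adjusted p = 9.8e-05) higher on the log2 scale. *H1f0* was 2.05 higher (SE 0.44, adjusted p = 0.00445), *H2afv* 1.24 lower and *H2afz* 0.58 lower. The last of these again had an adjusted p near the threshold, at 0.0397, and above 0.05 in 8 of the 9 omissions of a single library. *H2afy*, *H2afj* and *H1foo* were not called (adjusted p = 0.365, 0.968 and 0.234). This comparison and the one with control share the H3.3-KD libraries, so it is not independent of it. *H1fx* passed the filter only through those libraries, so its call here is not read as support.

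For each member, the genes whose centred log2(FPKM + 1) values lay closest over the 9 libraries were looked up among the 5933 genes that averaged 10 FPKM or more, with the root mean square difference as the measure. Closest to *H2afz* were *Capza2* (0.10) and *Nkiras1* (0.16), and closest to *H2afv* were *Ndufb8* (0.16) and *Nme5* (0.17). *H2afx* was nearest to *Rnf126* (0.32) and *5031439G07Rik* (0.32), the former at 3.16 to 6.30 FPKM in control and MFN1-KD and 51.8 to 93.4 FPKM in H3.3-KD. *H1fx* was nearest to *Ccdc9* (0.17) and *Ercc2* (0.30), and *H1f0* to *Wwp2* (0.27) and *Zdhhc4* (0.29). *Pola2* (0.21) was nearest to *H1foo*, those nearest to *H2afy* were *Mrps36* and *Gm2a* (both 0.25), and those nearest to *H2afj* were *Cdk5rap1* (0.16) and *Gm15452* (0.21). The genes nearest to *H2afy* and *H2afj* shared the low value in MFN1-KD replicate 3, with *Cdk5rap1* at 4.45 FPKM there and 7.21 to 12.9 FPKM in the other libraries.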

How the data were processed

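RNA was measured in 9 libraries (3 groups of 3) of pooled 8-cell embryos. Per the labels and the study's methods, the authors trimmed reads with cutadapt 1.16 and mapped them to mm10 with STAR; how FPKM were computed, the annotation and the strand setting are not given in the sources used here. The authors deposited FPKM, rounded to 2 decimals. The authors' Deseq2 needs read counts, so it could not be applied here. Genes averaging 1 FPKM or more were kept, and log2(FPKM + 1) of all 9 libraries was fitted in 1 model with no covariate by limma 3.58.1 (R 4.3.3; trend and robust options), with Benjamini-Hochberg adjustment over the 13011 genes tested. Fold changes are on the log2(FPKM + 1) scale and understate changes of low genes. The fit was tested on simulated data. Other values were computed with pandas 2.3.3 and numpy 2.4.6 in Python 3.11.15, and drawn with matplotlib 3.10.9. Positions, transcripts and GC content are from GENCODE M21 (GRCm38). Fragments per gene were estimated from the spacing of FPKM in single-transcript genes and were not used in any test. The members, the gene lists and the tests were chosen with earlier results of these data known, so no list is independent evidence. The rule for naming genes took every member, the targeted genes, of each partner list the gene with the smallest p in each knockdown and the one furthest the opposite way, the other variant genes and cluster linker histones above the filter, and for each member the 2 genes of most similar pattern (1 of these is not reported here); other machinery genes (*Vps72* in H3.3-KD, *Anp32e*, *Znhit1*, *Trrap*, *Atr*, *Prkdc*, *Rnf168*, *Eya3*, *Nasp*) were added after their values were seen. The H3.3-KD values of *Ipo7* and *Hmgb2* were added likewise. Nothing in the labels says that libraries came from separate fertilizations, so p-values measure the spread between these libraries. Alternatives were 2 other scalings, 2 other filters, another pseudocount, only the 6 libraries compared, a replicate block, library weights, removal of the trend over GC content and length, and each library left out.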

Additional observations from a re-analysis of the deposited data

How the results depend on the processing

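In H3.3-KD against control, 5 members had an adjusted p under 0.05. This count was 3 without the filter and ran from 3 to 5 when each library was left out in turn. The share of all genes is not given for these settings or for the replicate block, so the counts describe the members only. *H2afx* and *H2afv* kept their call under all 18 alternatives, and the calls that were lost were those of *H2afz* and *H1f0*. *H1fx* kept its call wherever it was tested. It had to be high in H3.3-KD to pass the filter, so its call under the filtered settings is not read as stability. For *H2afz* the adjusted p was 0.102 without the filter, and 0.0669, 0.13 and 0.132 without control replicates 1, 2 and 3, 0.0605 without MFN1-KD replicate 1, and 0.0859, 0.118 and 0.0936 without H3.3-KD replicates 1, 2 and 3. For *H1f0* it was 0.0673 and 0.125 without control replicates 1 and 3, and 0.0959 and 0.106 without H3.3-KD replicates 2 and 3. Leaving out libraries also leaves fewer degrees of freedom.

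Libraries that share a replicate number did not pair: correlations of their deviations from the group means ran from -0.05 to 0.16. With the replicate block, *H2afz* had an adjusted p of 0.0593 in H3.3-KD against control and 0.0518 against MFN1-KD, and 4 members were called in each of these comparisons. The other members kept their calls under the block.

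Members without overlap in MFN1-KD went from 0 to 3 with the trend over GC content and length removed. The share of all genes without overlap was not computed on that scale, so nothing is read from this count. Its cause was not tested. Changes that did not pass the test turned their sign as follows, each cause untested. With that trend removed, log2 fold changes were 0.36 for *H2afz* and 0.32 for *H2afx* and 0.12 for *H2afj* in MFN1-KD, -0.61 for *H2afy* in H3.3-KD, and -0.45 for *H2afy*, -1.15 for *H2afj* (adjusted p = 0.0297) and -0.27 for *H1foo* in H3.3-KD against MFN1-KD. Median-ratio scaling gave 0.056 for *H2afz* in MFN1-KD, -0.12 for *H2afy* in H3.3-KD and -0.36 for *H2afj* between the knockdowns, and upper-quartile scaling gave 0.053, -0.19 and -0.45. Library weights gave 0.045 for *H2afz* and 0.066 for *H2afj* in MFN1-KD and -0.51 for *H2afj* between the knockdowns. With 1 library left out, signs turned within -0.21 to 0.19 for *H2afz*, -0.46 to 0.027 for *H2afx*, -0.92 to 0.16 for *H2afy* and -0.69 to 0.20 for *H2afj* in MFN1-KD, within -0.13 to 0.44 for *H2afy* in H3.3-KD, and within -0.024 to 1.06 for *H2afy* and -0.52 to 0.37 for *H2afj* between the knockdowns.

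Pools of whole embryos limit what these values say of single cells, FPKM carry no counts, and 3 libraries a group cannot give a two-sided exact permutation p under 0.10.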
